A study of Homo sapiens with 18 samples.

Results

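The genes described are 4 WNT ligands (WNT16, WNT2, WNT5A and WNT5B), 3 secreted antagonist-family proteins (DKK1, DKK3 and SFRP1), the pathway target AXIN2 and the co-receptor LRP6. They were picked by gene symbol from the count table, 9 of its 57500 genes, and all 9 passed the filter on low counts that left 16994 genes for testing. The libraries are 18 bulk RNA-seq libraries of IMR90, a line of human lung fibroblasts, in 6 groups of 3. Prol were proliferating cells, and Sen (IR) were cells made senescent by ionising radiation. Sen (IR) + CCCP were irradiated, Parkin-overexpressing cells that, per the study's methods, were given the uncoupler CCCP so that mitophagy cleared their mitochondria. For this the methods name Parkin-overexpressing IMR90 that were proliferating or irradiated. A legend in the authors' response to reviewers also marks the untreated senescent cells (P), the study's sign for Parkin overexpression. The sample titles do not name Parkin for any group. The last 3 groups were irradiated, CCCP-treated cells given acetate, mitochondrial DNA (mtDNA) or both, the acetate after clearance and the mtDNA by transfection shortly before collection. Sen (IR) + CCCP, which carries the irradiation, the CCCP and the clearance, is thus the baseline for acetate and mtDNA. None of the 6 groups is labelled as given the transfection without mtDNA. Differences with mtDNA and with the transfection itself therefore cannot be told apart. The labels number the replicates without saying whether they were separate cultures, while the study's legends count replicates as independent experiments, and p-values measure the spread between these libraries.

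WNT ligands are secreted lipid-modified proteins that bind Frizzled receptors, and with the co-receptor LRP6 they stabilise beta-catenin, which drives TCF/LEF target genes such as AXIN2. WNT5A and WNT5B act mostly without beta-catenin, through receptors such as ROR2, while WNT16 and WNT2 can act through it. DKK1 blocks WNT signalling by binding LRP6, SFRP1 by binding ligands and receptors, and DKK3 is a relative of DKK1 whose part in the pathway is less settled. Several of these proteins are secreted by fibroblasts and are followed in senescent cells as part of their secretory output.

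Total counts per library ran from 24624886 to 46224280. The share of counts on mtDNA-encoded genes was 2.33 to 2.92% in Prol and 1.76 to 2.66% in Sen (IR), and 0.0463 to 0.238% in the 12 libraries that had CCCP. Replicate 2 of the combination stood apart with the 0.238% share, its groupmates being at 0.0642 and 0.0626%. Sen (IR) replicate 3 was at 2.66% against 1.95 and 1.76% in its groupmates, and was the lowest of its group for 8 of the 9 genes, LRP6 being the exception. All 8 fibroblast markers were detected in every group. Their summed level was 37100 to 40800 CPM in Prol, 20300 to 25300 CPM in Sen (IR) and 4710 to 6880 CPM in the CCCP groups. The fall from Prol to the CCCP groups was led by collagen genes, and its part in the results was not tested. Of the 4 endothelial markers TEK was high, at 167 to 373 CPM, with PECAM1 at most 0.307 and CDH5 at most 0.0939 CPM, and the 4 leukocyte markers summed to at most 1.11 CPM. The 4 epithelial markers summed to 30.6 to 32.9 CPM in Prol, mostly KRT19, and to at most 15.3 CPM elsewhere. In bulk RNA, fewer cells of a kind and less RNA per cell cannot be told apart.

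Levels are given as CPM, counts scaled to library size after TMM normalisation. Differences are log2 fold changes ± SE from edgeR's quasi-likelihood fit to all 18 libraries, with p-values adjusted by Benjamini-Hochberg over 16994 genes, and "higher" or "lower" calls use a threshold of 0.05. TMM holds the median gene near 0 (medians of -0.036 to 0.03 over the 8 comparisons of groups). With plain total counts the median gene moved by 0.286 for CCCP over Sen (IR) and by 0.383 for CCCP over Prol, and with the deposited TPM values by 0.355 and 0.415. Log2 fold changes from the main fit below are therefore relative to the median gene.

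The levels of the ligands are described first. In TPM, which correct for gene length and allow genes to be compared, the sum over 19 WNT ligands was 1060 ± 17.8 in Prol and 2090 ± 175 in Sen (IR) (SD, n = 3). It was 1670 ± 12 with CCCP, 2010 ± 39.6 with acetate, 1470 ± 22.7 with mtDNA and 1880 ± 21 with both. These sums are not relative to the median gene. On TPM the median gene itself moved, on the log2 scale, by 0.355 for CCCP over Sen (IR) and by 0.415 for CCCP over Prol. WNT5A and WNT16 made up nearly all of the sum. WNT5A held 55.5% of the sum in Prol, 36% in Sen (IR) and 64% with CCCP, while WNT16 held 31.3%, 57.2% and 31.8%. With acetate they were almost level, at 47.1% for WNT5A and 48.7% for WNT16, and with mtDNA alone WNT5A held 66% and WNT16 29.1%. WNT5B held 3.38 to 9.31% and WNT2 0.0235 to 3.44% over the 6 groups. No other ligand reached WNT2's share in Prol, the highest being WNT9A with 0.415% of the sum in the mtDNA group. In the groups with CCCP, however, WNT9A held more than WNT2. With CCCP alone these were 0.367% and 0.0913%, and with acetate 0.18% and 0.0235%.

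**Figure D1:**
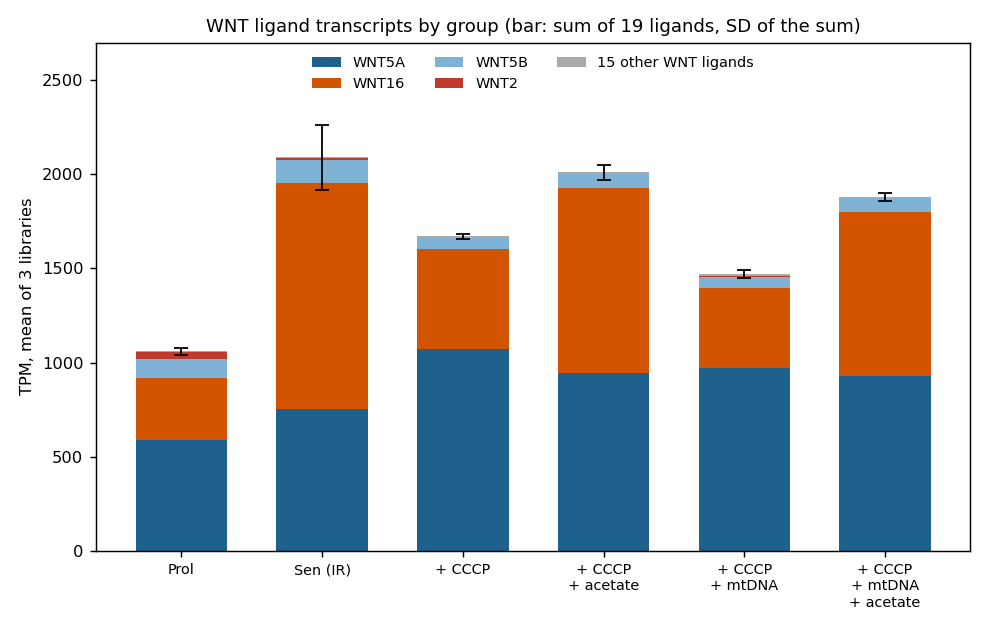
Each bar stacks the mean TPM of the WNT ligands in one group (y axis, TPM, mean of 3 libraries), with the SD of the summed TPM as the error bar. The sum is lowest in Prol (1060) and highest in Sen (IR) (2090), and the WNT16 part is large in Sen (IR) and in both groups with acetate. The TPM are not relative to the median gene, which itself differed between groups.

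WNT16 (ENSG00000002745, chr7:121325367-121341104, GRCh38, plus strand) encodes a ligand known to be induced in senescent and damaged fibroblasts. In Prol the libraries read 287.7, 286.7 and 288.0 CPM, and in Sen (IR) 1071, 1015 and 860.5 CPM. After CCCP they read 331.5, 327.1 and 314.4 CPM. Senescent cells thus stood apart from both, with no overlap. Acetate gave 631.1, 650.8 and 630.9 CPM, mtDNA 280.6, 267.7 and 271.3 CPM, and both agents together 574.9, 628.0 and 547.2 CPM. The groups with acetate lay between Sen (IR) and the other CCCP groups and overlapped neither. WNT16 was 3.42-fold higher in Sen (IR) than in Prol (1.77 ± 0.06, adjusted p = 1.07e-15) and 3.03-fold lower with CCCP than in Sen (IR) (-1.60 ± 0.06, adjusted p = 3.45e-15). Acetate raised it 1.97-fold over Sen (IR) + CCCP (0.98 ± 0.06, adjusted p = 1.47e-11), to a level 1.54-fold below Sen (IR) (adjusted p = 9.76e-09). With mtDNA alone it was 1.19-fold lower than with CCCP (-0.25 ± 0.06, adjusted p = 0.00742). The remaining excess of CCCP over Prol, 1.13-fold, had an adjusted p of 0.0172, which became 0.0737 without CCCP replicate 1 and 0.0576 without CCCP replicate 2. Prol and the mtDNA group, the lowest in the order, were not separated (adjusted p = 0.3), and on total counts or TPM their order turned, with mtDNA higher by 0.21 and 0.36 on the log2 scale.

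DKK1 (ENSG00000107984, chr10:52314281-52318042, plus strand), the LRP6-binding inhibitor, ran the other way. The Prol libraries held 27.03, 24.03 and 23.44 CPM, the Sen (IR) libraries 16.36, 16.50 and 13.54 CPM, and the CCCP libraries 59.18, 60.02 and 51.53 CPM. CCCP thus gave the higher level of the 3, without overlap. Acetate brought it to 9.989, 12.03 and 9.424 CPM, mtDNA left it at 61.99, 65.67 and 61.20 CPM, and both together gave 11.77, 9.139 and 11.59 CPM. Every library with acetate was below every library without it. DKK1 was 1.60-fold lower in Sen (IR) than in Prol (-0.68 ± 0.10, adjusted p = 4.56e-06) and 3.68-fold higher with CCCP than in Sen (IR) (1.88 ± 0.10, adjusted p = 1.68e-13), the 98.4 percentile of all genes tested. Acetate lowered it 5.42-fold (-2.44 ± 0.10, adjusted p = 7.63e-15), the 1.2 percentile. The change with mtDNA did not pass the test (0.14, 95% interval -0.05 to 0.33).

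WNT16 and DKK1 had the widest opposite swings of the 9, so the 250 bases before their RefSeq starts (GRCh38.p14) are shown, with searched motifs in capitals. DKK1 has CTTTGAA, a TCF/LEF core, 95 bases before its start and TATAAA 30 bases before it, both on the gene's strand. The WNT16 window, which lies in the first intron of another annotated transcript that starts upstream, holds none of the 4 motifs searched on both strands, whose letters follow the sequences.
DKK1 chr10:52314031-52314280 plus strand: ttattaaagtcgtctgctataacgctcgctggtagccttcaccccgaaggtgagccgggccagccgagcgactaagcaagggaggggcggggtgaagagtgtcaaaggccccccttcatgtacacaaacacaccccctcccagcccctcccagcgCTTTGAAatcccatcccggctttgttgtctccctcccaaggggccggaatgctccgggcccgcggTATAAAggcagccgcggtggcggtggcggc
WNT16 chr7:121328750-121328999 plus strand: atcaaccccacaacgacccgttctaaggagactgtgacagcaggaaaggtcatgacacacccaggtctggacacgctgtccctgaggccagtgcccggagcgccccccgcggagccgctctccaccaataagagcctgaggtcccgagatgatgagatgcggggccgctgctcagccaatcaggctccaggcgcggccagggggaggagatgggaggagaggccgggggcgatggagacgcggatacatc
Among 35116 such windows, 3.8% held CTTTGAA, 2.26% CTTTGAT, 4.2% the AP-1 site TGACTCA and 10.7% TATAAA. Windows were found for 5 of the 9 genes. WNT2 and both windows of WNT5A had no match, and of the 2 windows of WNT5B 1 had TATAAA on the opposite strand, 78 bases before the start. A match describes letters only. GC content was 62.8% for DKK1, 64.8% for WNT16, 74% for WNT2, 52.8 and 64.4% for the windows of WNT5A and 54.8 and 50.8% for those of WNT5B, against a median of 58%.

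**Figure D2:**
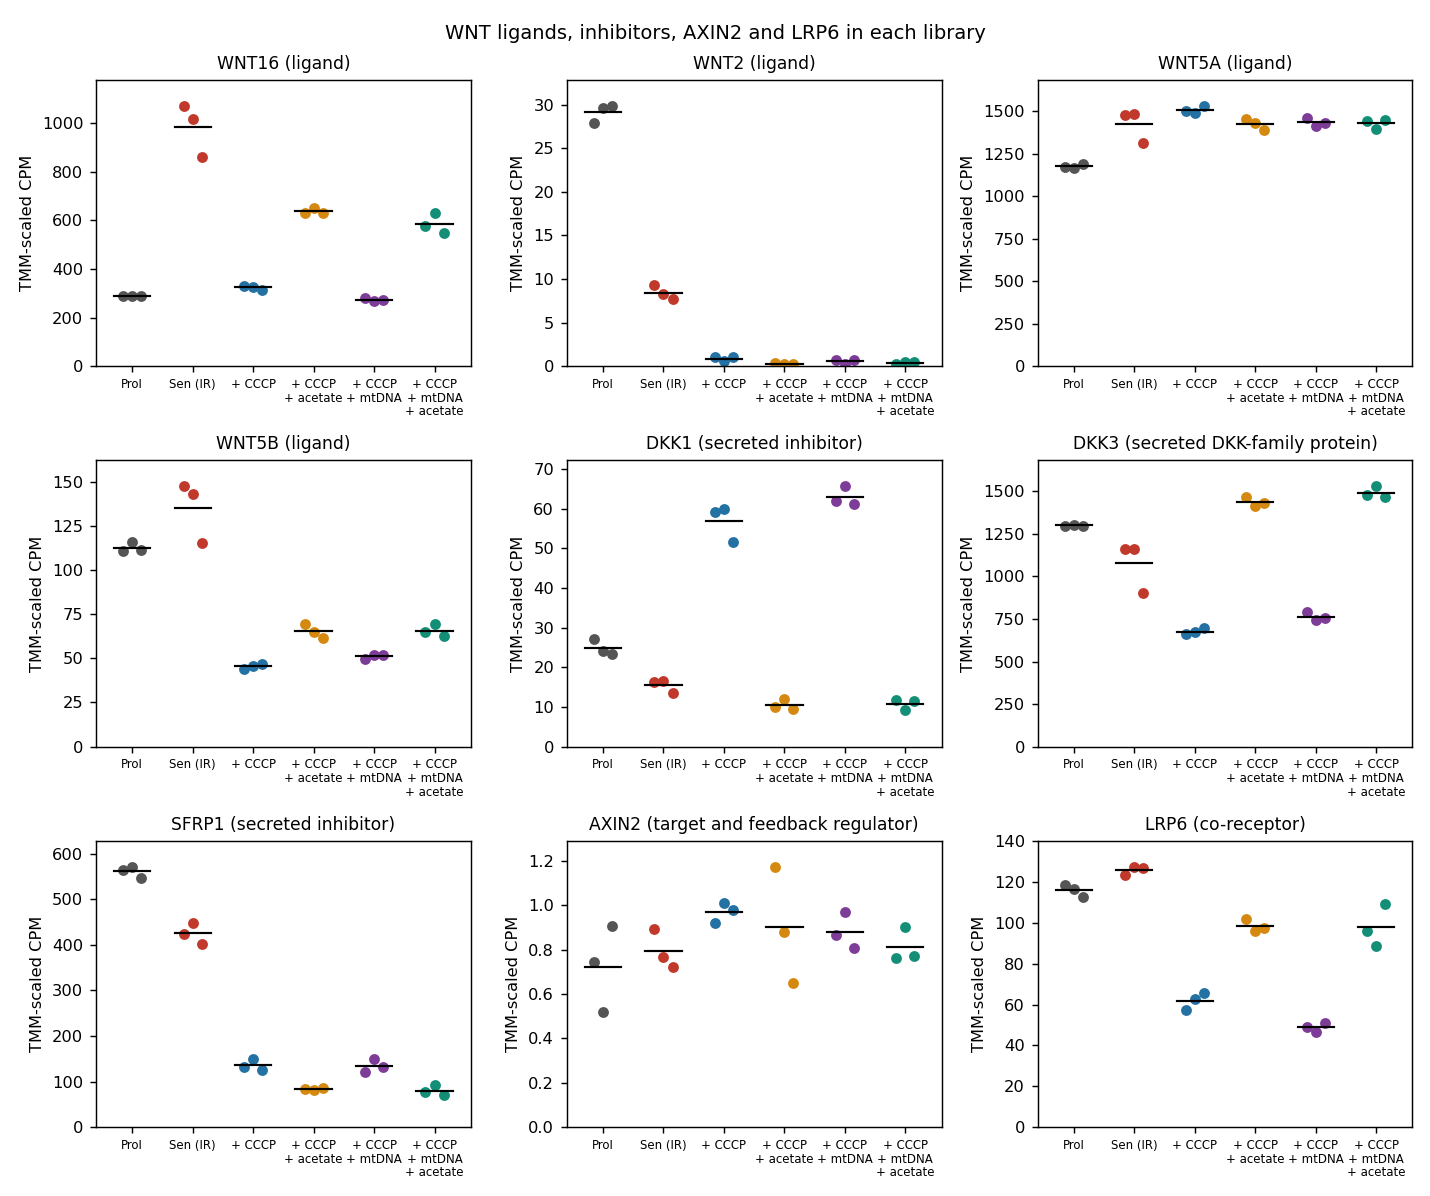
Each panel plots 1 gene, with a point for each of the 3 libraries of a group and a line at their mean (y axis, TMM-scaled CPM, from 0; x axis, the 6 groups, the last 4 of which were irradiated and had CCCP). WNT16 and DKK3 are higher and DKK1 is lower in both acetate groups than in the CCCP groups without acetate, and WNT5A hardly moves among the 5 irradiated groups.

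WNT2 (ENSG00000105989, chr7:117275451-117323152, minus strand), a ligand of lung mesenchyme that acts through beta-catenin, had 27.89, 29.62 and 29.86 CPM in Prol and 9.273, 8.327 and 7.681 CPM in Sen (IR). In Sen (IR) + CCCP it held 1.003, 0.556 and 1.016 CPM, or 22 to 36 counts a library. The 3 groups did not overlap. Senescent cells had 3.44-fold less than Prol (-1.78 ± 0.13, adjusted p = 9.06e-11), and CCCP cells had 10.1-fold less again (-3.33 ± 0.19, adjusted p = 8.71e-13). Acetate gave 0.380, 0.220 and 0.252 CPM, a further 3.06-fold fall (-1.61 ± 0.33, adjusted p = 0.00024). The other CCCP groups ranged from 0.252 to 0.759 CPM with mtDNA and from 0.300 to 0.492 CPM with both. At 7 to 36 counts per library these 4 groups are the least precise in the set, and on log2(TPM + 1) the fall with acetate was -0.77. Both agents against CCCP gave -1.09 ± 0.33 (adjusted p = 0.00659), which became 0.056 without replicate 1 of the combination. WNT2 shares 169 exon bases with CFTR on the opposite strand, and the study's methods give strand-aware counting for stranded libraries without saying whether these were stranded. Over all libraries CFTR had 1544 counts and WNT2 3702.

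WNT5A (ENSG00000114251, chr3:55465715-55490539, minus strand) was the most even of the ligands. Its libraries ranged from 1164 to 1189 CPM in Prol and from 1313 to 1531 CPM in all others, without overlap. It was 1.21-fold higher in Sen (IR) than in Prol (0.28 ± 0.05, adjusted p = 2.63e-05). Among the 5 irradiated groups, means ran from 1420 to 1510 CPM and no neighbouring pair in the order passed the test (adjusted p = 0.323 to 0.995), although the CCCP and mtDNA libraries did not overlap. This rests on the scaling and on which libraries are fitted. CCCP over Sen (IR) was 0.08 ± 0.05 with TMM (adjusted p = 0.128), 0.34 with total counts (adjusted p = 9.31e-08) and 0.51 on TPM (limma, adjusted p = 1.78e-08), or 0.06, 0.06 and 0.16 after taking off the median gene's shift. Leaving out Sen (IR) replicate 2 also brought a call (0.13, adjusted p = 0.0354). Acetate over CCCP was -0.08 with TMM and past the threshold at -0.20 with total counts, -0.18 on TPM and -0.10 when only the groups compared were fitted (adjusted p = 0.012). Against CCCP, mtDNA likewise passed under these 3 settings, at -0.14, -0.15 and -0.09, and the combination passed with total counts (-0.26) and on TPM (-0.21).

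WNT5B (ENSG00000111186, chr12:1529891-1647212, plus strand), the close relative of WNT5A, did move with CCCP. It ranged from 110.8 to 115.8 CPM in Prol, 115.2 to 147.5 CPM in Sen (IR) and 43.90 to 46.74 CPM with CCCP. Sen (IR) and Prol overlapped, though the difference passed the test (0.26 ± 0.07, adjusted p = 0.00237, and 0.36 without Sen (IR) replicate 3). CCCP cells had 2.98-fold less than Sen (IR) (-1.57 ± 0.07, adjusted p = 2.8e-14). Acetate gave 61.52 to 69.61 CPM, 1.44-fold above CCCP (0.52 ± 0.07, adjusted p = 1.73e-06), still 1.71-fold under Prol when mtDNA was added (adjusted p = 2.01e-09). The mtDNA group, at 49.59 to 52.09 CPM, did not pass the test against CCCP (0.17, 95% interval 0.01 to 0.33, adjusted p = 0.111) although no library overlapped.

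DKK3 (ENSG00000050165, chr11:11956207-12009769, minus strand) was, like WNT16, lower with CCCP than in Sen (IR) and higher with acetate than with CCCP, but it was lower in senescence. It held 1298, 1302 and 1298 CPM in Prol, 1161, 1164 and 904.3 CPM in Sen (IR), and 662.3, 671.5 and 694.8 CPM with CCCP. The levels fell from Prol to Sen (IR) to CCCP without overlap. Acetate gave 1466, 1416 and 1430 CPM, mtDNA 792.7, 742.1 and 758.1 CPM, and both 1480, 1530 and 1465 CPM. Both acetate groups were above every other library in the set. The fall in senescence was 1.21-fold (-0.27 ± 0.07, adjusted p = 0.00128) and shrank to -0.16 without Sen (IR) replicate 3 (adjusted p = 0.000734). CCCP lowered DKK3 1.59-fold against Sen (IR) (-0.67 ± 0.07, adjusted p = 8.41e-09), and acetate raised it 2.13-fold (1.09 ± 0.07, adjusted p = 6.48e-12). Acetate over Prol, 1.11-fold, did not pass the threshold (adjusted p = 0.056), but did with total counts (0.38), on TPM (0.55) and under 3 more settings. The rise with mtDNA (0.18, adjusted p = 0.0679) passed with DESeq2 (adjusted p = 0.0437). USP47, on the opposite strand, shares 5681 exon bases with DKK3 and had 134003 counts in all against 668255 for DKK3.

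SFRP1 (ENSG00000104332, chr8:41261962-41309473, minus strand), a decoy that binds WNT ligands, fell at each step. It ranged from 547.9 to 571.7 CPM in Prol, 402.1 to 448.5 CPM in Sen (IR) and 125.1 to 148.7 CPM with CCCP. Acetate gave 82.46 to 84.75 CPM, mtDNA 121.8 to 149.3 CPM and both 71.39 to 92.70 CPM. The acetate groups overlapped each other and the groups with CCCP or mtDNA alone overlapped each other, but these pairs of groups did not overlap. The falls were 1.32-fold in senescence (-0.40 ± 0.08, adjusted p = 0.00017), 3.14-fold with CCCP (-1.65 ± 0.08, adjusted p = 1.14e-13) and 1.62-fold with acetate (-0.70 ± 0.08, adjusted p = 1.9e-07). Acetate therefore moved SFRP1 and DKK1 down and DKK3 up.

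LRP6 (ENSG00000070018, chr12:12116025-12267044, minus strand), the co-receptor that DKK1 occupies, read 118.5, 116.8 and 112.9 CPM in Prol and 123.3, 127.6 and 126.9 CPM in Sen (IR). The 2 groups did not overlap, yet the difference missed the threshold (0.12, 95% interval -0.01 to 0.25, adjusted p = 0.102). It passed under 4 alternatives, with 0.14 to 0.21 on the log2 scale. With CCCP it fell to 57.53, 62.59 and 65.62 CPM, 2.04-fold below Sen (IR) (-1.03 ± 0.06, adjusted p = 2.87e-12). Acetate raised it to 102.2, 96.23 and 97.49 CPM (1.59-fold, 0.67 ± 0.06, adjusted p = 4.77e-09). With mtDNA it was lower than with CCCP alone, at 48.87, 46.74 and 50.80 CPM (1.27-fold, -0.34 ± 0.06, adjusted p = 0.000496). The combination read 96.24, 88.97 and 109.4 CPM, which overlapped acetate alone.

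AXIN2 (ENSG00000168646, chr17:65528563-65561648, minus strand), the member that beta-catenin drives most directly, was barely expressed. Each library held 14 to 40 counts of it, or 0.518 to 1.18 CPM, and its group means ran from 0.724 CPM in Prol to 0.97 CPM with CCCP. AXIN2 shares 1316 exon bases with another annotated protein-coding gene on the same strand. Over all libraries that gene had 3 counts and AXIN2 500, and whether reads were lost in the shared bases was not tested. AXIN2 passed the test in 0 of the 9 comparisons with edgeR, at an unadjusted p under 0.05 in 0 and with DESeq2 in 0. CCCP over Prol was 0.39 ± 0.26 (95% interval -0.16 to 0.95, adjusted p = 0.177), and CCCP over Sen (IR) 0.27 ± 0.25 (95% interval -0.27 to 0.82). Differences within these intervals were not detectable at this depth. With total counts CCCP over Prol passed at 0.75 (adjusted p = 0.0114), and on TPM both comparisons passed at 0.40 and 0.31, which were -0.02 and -0.04 relative to the median gene. With TMM and with total counts the values relative to the median gene were 0.36 for CCCP over Prol and 0.25 for CCCP over Sen (IR). The added 1 in log2(TPM + 1) shrinks changes of a gene at this level, so the TPM values near 0 do not show that AXIN2 moved with the median gene.

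**Figure D3:**
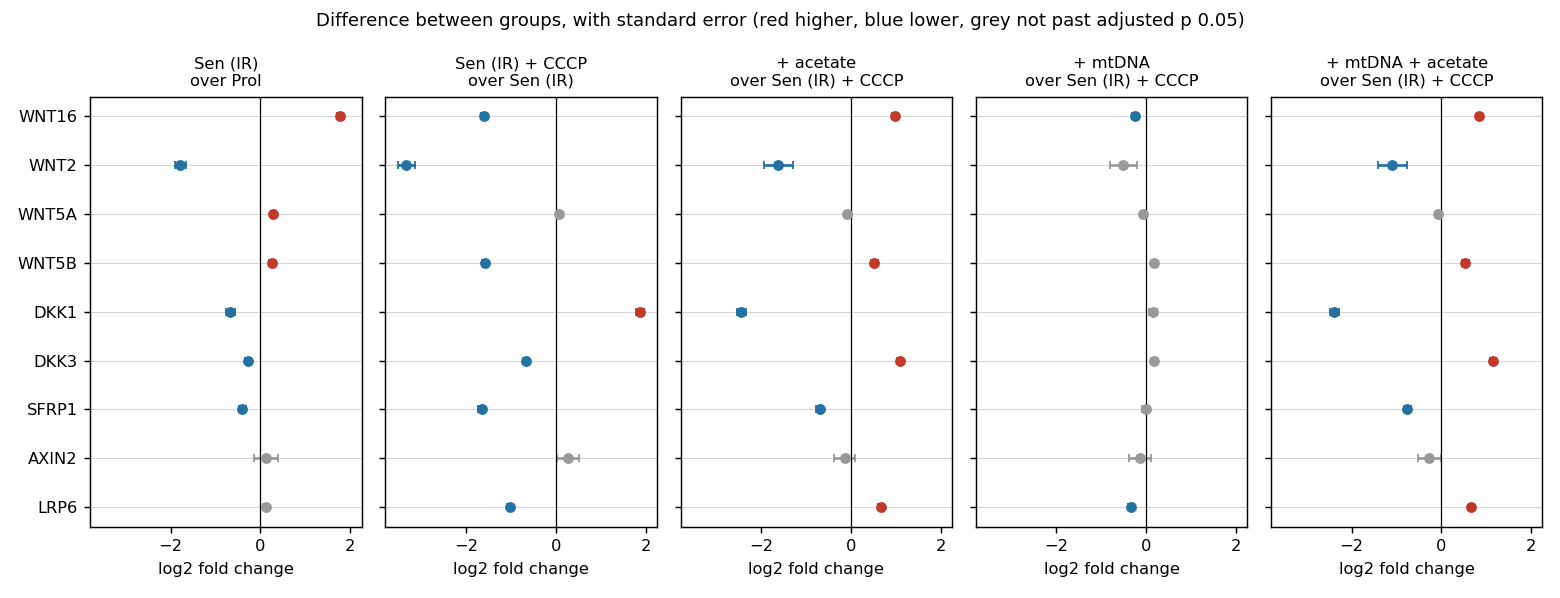
Each panel is 1 comparison, with the log2 fold change (x axis) of each gene (y axis) as a point and its standard error as a bar, red where higher, blue where lower and grey where the adjusted p missed 0.05. The acetate panel and the panel with both agents look alike, and DKK1 sits at 1.88 with CCCP and at -2.44 with acetate. In the mtDNA panel LRP6 (-0.34) and WNT16 (-0.25) are blue and the rest are grey, WNT2 lying at -0.51.

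Counted over the 9 genes, Sen (IR) against Prol had 3 higher (WNT16, WNT5A and WNT5B) and 4 lower (WNT2, DKK1, DKK3 and SFRP1), where 26.7% of all genes were higher and 29.9% lower. CCCP against Sen (IR) had 1 higher (DKK1) and 6 lower, beside 34% and 31.3% of all genes, with a median over the 9 of -1.03 against 0.03 for all genes. Against Prol, CCCP cells had 3 higher (WNT16, WNT5A and DKK1) and 5 lower, beside 35.1% and 34.1%. Most of these genes thus fell with CCCP, more than the share of all genes that did. As the 9 genes were chosen with earlier results known, this is a description.

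Acetate, mtDNA and both were each compared with the same Sen (IR) + CCCP libraries, so these comparisons share their controls. Acetate had 4 higher (WNT16, WNT5B, DKK3 and LRP6) and 3 lower (WNT2, DKK1 and SFRP1), beside 28.8% and 28.3% of all genes. The combination had the same counts, 4 higher and 3 lower, beside 30.3% and 31.4%. Its values were 0.85 ± 0.06 for WNT16, 0.53 ± 0.07 for WNT5B, 1.14 ± 0.07 for DKK3 and 0.67 ± 0.06 for LRP6. On the lower side they were -2.38 ± 0.10 for DKK1, -0.76 ± 0.08 for SFRP1 and -1.09 ± 0.33 for WNT2. With mtDNA alone 0 were higher and 2 lower (WNT16 and LRP6), beside 10.7% and 7.4% of all genes. DESeq2 called 3 there, and 4 had an unadjusted p under 0.05. Fitting only the 6 libraries compared called 5, adding WNT5A, WNT5B and DKK3 at -0.09, 0.16 and 0.16.

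Adding mtDNA to acetate was compared directly. The combination against acetate alone called 0 of the 9 with edgeR, 0 at an unadjusted p under 0.05 and 0 with DESeq2, beside 6.57% of all genes higher and 6% lower. The 95% intervals bound the differences at -0.10 to 0.11 for WNT5A, -0.18 to 0.29 for DKK1, -0.09 to 0.20 for DKK3, -0.14 to 0.13 for LRP6 and -0.26 to 0.01 for WNT16. WNT2 was left at -0.36 to 1.40. With total counts WNT16 passed at -0.19 (adjusted p = 0.0252). Against mtDNA alone the combination had 4 higher and 2 lower, beside 27.4% and 29.9%. These were WNT16 (1.09 ± 0.06), LRP6 (1.01 ± 0.06), DKK3 (0.96 ± 0.07) and WNT5B (0.36 ± 0.07) on the higher side, and DKK1 (-2.53 ± 0.10) and SFRP1 (-0.75 ± 0.08) on the lower. WNT2 at -0.59 missed the threshold (adjusted p = 0.18) and passed without mtDNA replicate 2, at -0.92 (adjusted p = 0.0223).

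Whether the log2 changes with acetate and mtDNA added up, that is whether their folds multiplied, was tested as an interaction. The interaction took the mtDNA log2 difference among acetate-treated cells less the one among cells without acetate. It does not test whether CPM levels add. It passed for 0 of the 9 with edgeR, beside 0.0765% of all genes positive and 0.583% negative, and 1 had an unadjusted p under 0.05. That gene was LRP6, at 0.34 ± 0.09 (adjusted p = 0.0937). It passed with DESeq2 (0.37, adjusted p = 0.0112), with no filter on low counts (adjusted p = 0.016), and without the combination's replicate 2, the library that stood apart (0.40, adjusted p = 0.0031).

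Ordering the groups by level needed 7 further pairs of groups, in which 66.5% (acetate over Prol), 70.7% (mtDNA over Prol), 66.8% (both over Prol), 65.9% (acetate over Sen (IR)), 67.5% (mtDNA over Sen (IR)), 66.9% (both over Sen (IR)) and 61.3% (mtDNA over acetate) of all genes passed in either direction. DKK1 was lower in the combination than in Sen (IR) (1.43-fold, adjusted p = 0.000248), and DKK3 was lower with mtDNA than in Sen (IR) (1.41-fold, adjusted p = 8.14e-07). On TPM both calls were lost, at -0.21 for DKK1 (limma, adjusted p = 0.0917) and -0.13 for DKK3 (limma, adjusted p = 0.0896). SFRP1 was lower with acetate than with mtDNA (1.61-fold, adjusted p = 2.42e-07), and WNT5B was higher with acetate than with mtDNA (1.28-fold, adjusted p = 0.000215). LRP6 with acetate stayed under Prol (1.18-fold, adjusted p = 0.00175), a call lost with total counts and turned on TPM (0.17, adjusted p = 0.0324). Acetate and the combination were neighbours for 7 of the 9 genes and passed the test in none.

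Of the 6 state markers listed, MKI67, TOP2A and CDKN1A are given here and moved with some of these genes. The levels of CCNA2, LMNB1 and CDKN2A are not described. MKI67, a proliferation marker, ranged from 58.3 to 60.2 CPM in Prol, 13.8 to 17.8 in Sen (IR), 28.9 to 32.4 with CCCP and 23.2 to 28.6 with mtDNA. With acetate it was at 2.73 to 3.57 CPM and with both at 3.51 to 6.23 CPM. TOP2A ran from 99.6 to 115 CPM with CCCP to 17.5 to 19.3 CPM with acetate, and the cell-cycle inhibitor CDKN1A from 1070 to 1130 CPM to 1770 to 1900 CPM. Among the 4 groups with CCCP, DKK1 and MKI67 were both lower in those with acetate, where WNT16 and DKK3 were higher. In Prol, where MKI67 was highest, DKK1 was below its level with CCCP. The part of the proliferative state in these differences was not tested.

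Of 79 other genes of the pathway in 9 functional lists, 49 passed the filter on low counts. In Sen (IR) against Prol, 10 of the 49 were higher and 23 lower, beside 26.7% and 29.9% of all genes. With total counts these were 14 and 17, and on TPM 10 and 17. DKK2, another secreted DKK, rose 5.38-fold (2.43 ± 0.10, adjusted p = 6.63e-15), and WLS, which carries WNT ligands to the cell surface, rose 2.33-fold (1.22 ± 0.07, adjusted p = 7.59e-12). WNT7B fell (-2.01 ± 0.51, adjusted p = 0.00194, and -0.33 on log2(TPM + 1)), at under 1 CPM in every library. Of 9 Frizzled receptors 1 was higher and 3 lower, with FZD8 at 0.71 and FZD7 at -0.89. Of 8 TCF/LEF factors and co-activators 5 were lower and 0 higher, while 6 had an unadjusted p under 0.05 and DESeq2 called 5. TCF7 had the largest fall of the list (-1.21 ± 0.25, adjusted p = 0.000241), which shrank to -0.44 on log2(TPM + 1). Among targets and feedback regulators CCND1 rose (0.57 ± 0.09) and NKD2 fell (-1.64 ± 0.19). The ubiquitin ligase adaptor BTRC rose (0.65 ± 0.05) and APC fell (-0.38 ± 0.08). KREMEN1, a receptor for DKK proteins, fell (-0.78 ± 0.08), as did ROR2 (-1.13 ± 0.30, and -0.51 on log2(TPM + 1)). RSPO3, an R-spondin, had 0 counts in every Prol library and 6, 0 and 13 in Sen (IR). LRP5 (0.28, adjusted p = 0.0421) and PORCN (-0.26, adjusted p = 0.0491) were calls that other settings removed.

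With CCCP against Sen (IR), 20 of the 49 were higher and 18 lower, beside 34% and 31.3% of all genes. This split became 24 and 12 with total counts and 29 and 9 on TPM. The median of the 49 was 0.24 against 0.03 over all genes. All 5 other co-receptors were lower (4 with total counts, 2 on TPM), led by LRP5, the partner of LRP6, at 3.97-fold (-1.99 ± 0.13, adjusted p = 6.06e-12). The R-spondin receptor LGR4 fell 3.59-fold (-1.84 ± 0.07, adjusted p = 4.15e-15) and ZNRF3, which removes Frizzled receptors, rose 2.5-fold (1.32 ± 0.10, adjusted p = 1.76e-10). Among the 9 Frizzled receptors 3 were higher and 4 lower (5 and 2 on TPM), with FZD8 at 1.47 ± 0.10 and FZD4 at -0.86 ± 0.11. Of the TCF/LEF list 5 were higher and 1 lower (7 and 0 on TPM), and LEF1 rose 5.88-fold (2.55 ± 0.09, adjusted p = 3.88e-16). Of 10 genes of the Dishevelled and destruction complex list 7 were higher and 2 lower (8 and 0 with total counts, 9 and 0 on TPM). Of the 2 ligand maturation genes 0 passed with edgeR, 0 at an unadjusted p under 0.05 and 0 with DESeq2, while on TPM both were higher. Targets and feedback regulators were split, 2 higher and 3 lower, with MYC at 0.72 ± 0.07 and APCDD1, a membrane-bound inhibitor, at -3.11 ± 0.23. DKK2 fell 3.46-fold (-1.79 ± 0.09). WNT9A rose (1.15 ± 0.20, adjusted p = 2.1e-05). AXIN1, the scaffold of the destruction complex, rose (0.92 ± 0.08), while CTNNB1, beta-catenin itself, fell with TMM (-0.37 ± 0.06), as did TCF7L1 (-0.36 ± 0.10), but both calls were lost with total counts and both values were above 0 on TPM, at 0.07.

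Acetate over Sen (IR) + CCCP had 19 of the 49 higher and 14 lower, beside 28.8% and 28.3% of all genes. With total counts these were 11 and 18, and on TPM 13 and 18. LEF1 fell 2.60-fold (-1.38 ± 0.08, adjusted p = 1.49e-12), MYC fell 1.65-fold (-0.73 ± 0.07, adjusted p = 9.76e-09) and DKK2 fell 1.94-fold (-0.96 ± 0.10, adjusted p = 5.59e-08). KREMEN1 rose 4.12-fold (2.04 ± 0.10, adjusted p = 1.35e-13) and FZD4 3.28-fold (1.71 ± 0.11, adjusted p = 7.93e-12). ROR1 fell (-1.41 ± 0.11) and ROR2 rose (1.17 ± 0.37, lost without CCCP replicate 1, and 0.37 on log2(TPM + 1)). WNT9A fell (-0.68 ± 0.18), DVL1 rose (0.64 ± 0.07) and GSK3B fell (-0.24 ± 0.06). NKD2 rose (1.18 ± 0.34) from 0.145 to 0.278 CPM. The calls for WNT2B (0.50), TCF7 (0.50), PORCN (0.37) and FZD9 (-1.10) were each lost under at least 1 other setting. RSPO3, called at -2.23 (adjusted p = 0.0311), rested on 3, 12 and 19 counts with CCCP and 1, 3 and 4 with acetate, and DESeq2 did not call it (adjusted p = 0.078).

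With mtDNA against CCCP, 5 of the 49 were higher and 2 lower, beside 10.7% and 7.4% of all genes. With total counts these were 5 and 6, and on TPM 5 and 4. FZD4 rose 2.17-fold (1.12 ± 0.11, adjusted p = 1.56e-07), AXIN1 rose (0.42 ± 0.07, adjusted p = 0.000335) and NKD2 rose (1.42 ± 0.35, adjusted p = 0.00651, and 0.0525 without mtDNA replicate 3). DKK2 (-0.40 ± 0.10) and GSK3B (-0.19 ± 0.06) were lower, and leaving out mtDNA replicate 1 removed both calls, while that of GSK3B was lost without any 1 of the 6 libraries. For the interaction on the log2 scale, 0.0765% of all genes were positive and 0.583% negative. FZD4 was also the 1 gene of the 49 that passed it (-0.82 ± 0.15, adjusted p = 0.00735). Its libraries ranged from 5.59 to 6.99 CPM with CCCP, 12.6 to 14.8 with mtDNA, 19 to 22.8 with acetate and 23.5 to 30.6 with both. The combination against CCCP had 16 higher and 14 lower (12 and 18 with total counts), beside 30.3% and 31.4% of all genes. There KREMEN1 was at 2.12 ± 0.10, FZD4 at 2.01 ± 0.11, ROR1 at -1.32 ± 0.11 and LEF1 at -1.23 ± 0.08. Against acetate alone the combination had 2 higher and 0 lower, beside 6.57% and 6% of all genes. These were FZD8 and FZD4 (the latter at 0.30 ± 0.09, adjusted p = 0.0414, and 0.237 without the combination's replicate 2). Relative to mtDNA alone, 16 of the 49 were up and 13 down in the combination, beside 27.4% and 29.9% of all genes. CCCP against Prol had 21 and 21 (28 and 14 with total counts, 31 and 11 on TPM), beside 35.1% and 34.1%. The combination against acetate alone had 5 higher and 0 lower with size factors, 0 and 1 with total counts and 0 and 0 on TPM. There 8 of the 49 had an unadjusted p under 0.05 and DESeq2 called 5.

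**Figure D4:**
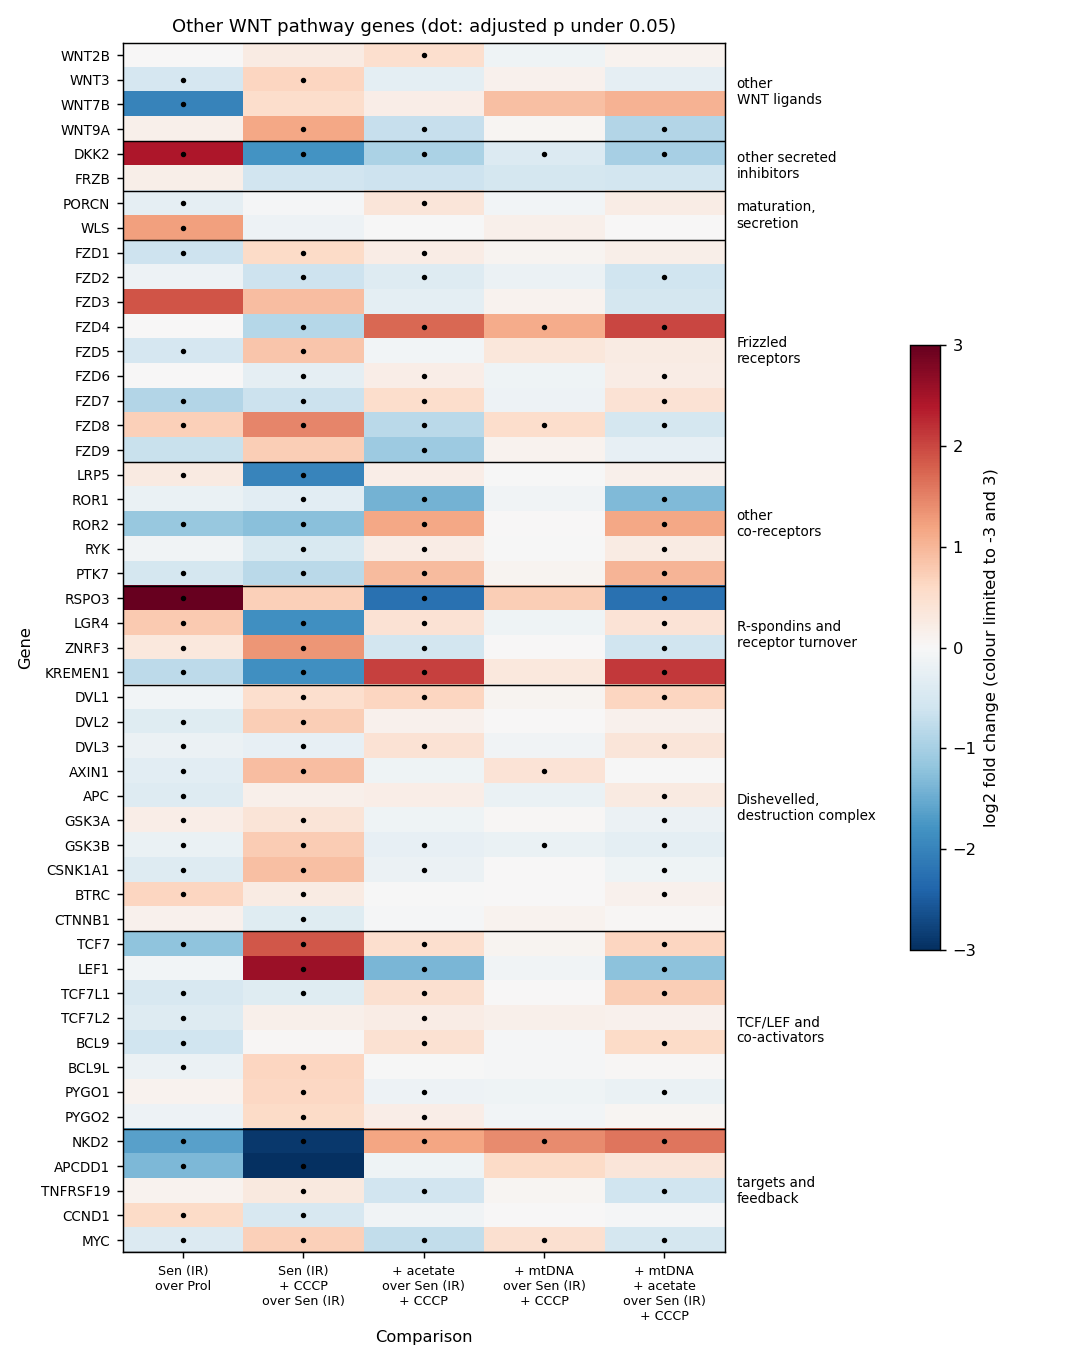
Rows are the 49 tested pathway genes grouped by list, columns are 5 comparisons, the colour is the log2 fold change (limited to -3 and 3) and a dot marks an adjusted p under 0.05. LEF1 turns from red with CCCP to blue with acetate, KREMEN1 and FZD4 turn the other way, and the mtDNA column holds 7 dots.

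The genes whose pattern over the 18 libraries was most like each member were found by Pearson's r of log2 CPM among 13235 genes, as a description, since the 18 libraries share 6 group means. For WNT16 they were SYTL4 (0.974), TMEM63B (0.972) and DDA1 (0.97). For DKK1 they were MRPL3 (0.989), MCM2 (0.985) and PAICS (0.984), of which MCM2 is a replication licensing gene. For DKK3 they were ITM2C (0.995), SRPX and PTPRJ, and for SFRP1 CAVIN3 (0.993), CFL1 and SEC13. WNT2 was nearest to NEXN (0.989), MXRA5 and MEST, WNT5B to CERCAM, PDLIM1 and LMAN1 (0.988 each), and WNT5A to RDH11 (0.962), DNAJC16 and CCDC47. LRP6 was nearest to SS18 (0.978), SMURF2 and GSTM3, and AXIN2 had no close match, the nearest being GET4 (0.678), NSFL1C and SAMD10. Within the 9, WNT2 and SFRP1 had the highest r (0.96), followed by WNT5B and LRP6 (0.84), and DKK1 and DKK3 the lowest (-0.89).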

How the data were processed

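Trimming by the authors used Trimmomatic (0.36) and alignment used STAR (2.5.2b) on the GRCh38 genome, after which they counted uniquely mapped exon reads per gene with featureCounts of Subread (1.5.2), giving the deposited count table. The deposited TPM values were made by the authors from these, with gene lengths not given in the sources used here. The study's methods give strand-aware counting for stranded libraries, without saying whether these were stranded. Columns that matched no sample numbered 0. Of 57500 genes, 16994 passed edgeR's filterByExpr, and 485 without a symbol held 0.0166% of counts.

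Counts were TMM-scaled and fitted with edgeR (4.0.16, R 4.3.3) by quasi-likelihood, with 6 group means over 18 libraries, and p-values were adjusted by Benjamini-Hochberg over all genes tested at 0.05. DESeq2 (1.42.0), other filters, the replicate block, single-library omissions and, chosen after seeing the data, total counts and limma (3.58.1) on log2(TPM + 1) were alternatives. Scripts were tested on simulated data. The members and gene lists were chosen with earlier results of these data known. The genes named were all 9 members and, per pathway list, the called gene with the largest rise and fall in most comparisons. For CCCP over Prol and the combination over mtDNA the Results give only counts of pathway genes. For the combination over CCCP they name only some of these genes. Left out for CCCP over Prol were, among others, NKD2 (-4.53 ± 0.26), KREMEN1 (-2.61 ± 0.10) and LEF1 (2.46 ± 0.09). FZD8 in the comparison with acetate alone was named after its values were seen. Likeness used genes with a mean CPM of at least 1 and a prior count of 2. Promoters are from RefSeq and coordinates from GENCODE. Totals of 24624886 to 46224280 counts per library set the precision of genes with few counts, WNT2 after CCCP and AXIN2.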

Additional observations from a re-analysis of the deposited data

How the results depend on the processing

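Differences are log2 values unless named as counts. Over the 9 genes and 9 comparisons, 1180 recomputed values kept direction and side of the threshold, 3 lost their call, 28 gained one and 48 turned sign. Over other neighbouring groups these were 178, 3, 7 and 22, and over the named pathway genes 1322, 80, 0 and 5. Where not stated below, the cause was not tested.

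The replicate numbers did not pair the libraries (r of same-numbered deviations -0.08 to 0.09, 0 of 15 group pairs all above the limit, 8 of 18 libraries closest to their own number). With the replicate block 9644 genes were called for Sen (IR) over Prol, against 9628, and PORCN there (-0.26, adjusted p = 0.0574) and FZD9 with acetate (-1.05, adjusted p = 0.0556) lost their calls. The counts of members called did not change with it.

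Fitting only the groups compared called 5 members for mtDNA over CCCP, against 2. For the combination over acetate total counts called 1, against 0, and all genes called ran from 1241 to 1882 without single libraries, against 2136. For the interaction, 112 genes were called, 284 with DESeq2, 413 with no filter and 55 to 403 without single libraries (403 without the combination's replicate 2), and members called were 1 with DESeq2, 1 with no filter and 0 to 1 without single libraries.

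Signs turned on TPM for CTNNB1 (0.0673) and TCF7L1 (0.0702) with CCCP over Sen (IR), for DVL3 (0.0992) and PORCN (0.1663, and 0.0471 with total counts) with CCCP over Prol, and for LRP6 with acetate over Prol (0.1706, and a lost call at -0.0025 with total counts). WNT16 with mtDNA over Prol turned with total counts (0.2124) and TPM (0.3596). In the combination over acetate, LRP6 turned with DESeq2 size factors (0.0243) and DESeq2 (0.0276). WNT5A turned there with no filter (-0.0072), at least 10 counts in every library (-0.005), total counts (-0.0517) and TPM (-0.0301), and WNT5B under the same settings (-0.0027, -5e-04, -0.0476 and -0.0256). DKK1 (-0.001) and DKK3 (-0.003) turned with total counts. In the combination over mtDNA, WNT5A turned with size factors (0.02), DESeq2 (0.0208), at least 10 counts (0.0039) and only the groups compared (0.0083). WNT5A with acetate over Sen (IR) turned with no filter (0.0304), total counts (0.1383) and TPM (0.3303), and in the combination over Sen (IR) with at least 10 counts (-0.0093). AXIN2 turned in the combination over Sen (IR) with at least 10 counts (-0.0128) and with mtDNA over acetate with no filter (-0.0118) and at least 10 counts (-0.0072).

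Without single libraries, AXIN2 ran from -0.0656 to 0.3441 for Sen (IR) over Prol, -0.3199 to 0.0841 for acetate over CCCP, -0.3245 to 0.0802 for the combination over acetate, -0.1934 to 0.2107 for the interaction, -0.2152 to 0.1895 for mtDNA over acetate and -0.0548 to 0.118 for the combination over Sen (IR). SFRP1 ran from -0.0884 to 0.0674 for mtDNA over CCCP, -0.1795 to 0.0141 for the combination over acetate and -0.1642 to 0.0269 for the interaction. DKK1 ran from -0.0233 to 0.1748 for the combination over acetate and -0.1758 to 0.0227 for the interaction. For the combination over acetate LRP6 ran from -0.0857 to 0.0595, WNT5A from -0.0116 to 0.0238 and WNT5B from -0.0324 to 0.0581. WNT5A also ran from -0.0538 to 0.0564 for acetate over Sen (IR), -0.0495 to 0.06 for the combination over Sen (IR) and 0.0007 to 0.0263 for the combination over mtDNA.

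The share of all calls that were higher went, from TMM to total counts to TPM, from 52.1 to 70.6 and 78.8% for CCCP over Sen (IR), 50.8 to 72.2 and 78.8% for CCCP over Prol, 47.1 to 58.2 and 55.9% for Sen (IR) over Prol and 50.5 to 37.1 and 39.5% for acetate over CCCP. It went from 59.1 to 35.7 and 34% for mtDNA over CCCP, 49.1 to 32.3 and 36% for the combination over CCCP, 47.8 to 36.2 and 41.1% for the combination over mtDNA, 52.2 to 29.1 and 34.9% for the combination over acetate (64.7% with size factors) and 11.6 to 14.2 and 22.9% for the interaction. WNT2, at 7 to 36 counts after CCCP, could not be fitted with at least 10 counts in every library and shrank on TPM, to -2.28 for CCCP over Sen (IR), where the added 1 lowers folds of low genes.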
